A study of Canis lupus familiaris with 30 samples.

Results

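The levels of 8 transcripts of the RAS module were examined in 30 canine thyroid carcinomas. They were the adaptor *GRB2*, the exchange factors *SOS1* and *SOS2*, the GTPases *HRAS* and *NRAS*, the RAF kinases *ARAF* and *BRAF*, and *NF1*, which encodes the GTPase-activating protein neurofibromin. They were taken by gene symbol from the count table, which held 30424 genes, 15780 of them with a symbol. The 8 symbols each matched 1 gene, and the 8 genes were among the 18711 that had at least 10 counts in at least 5 tumors. Each tumor was a primary tumor of the thyroid gland of a dog (*Canis lupus familiaris*), from which frozen tissue gave total RNA for a library depleted of ribosomal RNA. No treatment, genotype, age or tumor type is named in the sample labels, so the tumors were not divided into groups by diagnosis, and no group was compared with another.

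RAS proteins are small GTPases at the inner face of the plasma membrane that signal while bound to GTP. A receptor tyrosine kinase that is phosphorylated after binding its ligand recruits the adaptor GRB2, which carries the exchange factor SOS to the membrane, where SOS loads RAS with GTP. RAS-GTP then binds and activates the RAF kinases, which phosphorylate MEK and through it ERK, and neurofibromin ends the signal by stimulating RAS to hydrolyze GTP. In human thyroid cancer, activating mutations of *BRAF* and of the RAS genes are well known drivers. The data here are transcript levels, which do not measure GTP loading, phosphorylation or mutation.

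The total count of a tumor over all genes ran from 12288945 to 45148677. Levels are given as log2 of the count divided by a median-of-ratios size factor, plus 1. They were not scaled by gene length, so the levels of different genes are not compared with each other. Unsupervised clustering of the tumors on 764 variable genes, without the 8 genes, gave a larger branch of 25 tumors and a smaller branch of 5 tumors (TC1020, TC1473, TC1601, TC1936 and TC2289), whose mean level of the C-cell marker list lay between 12.03 and 14.77, against 1.61 to 8.80 in the larger branch. These branches were defined here from the data, not from the sample labels. Marker genes were not left out of the clustering, so the gap in C-cell markers describes the branches and is no separate test of them. A coefficient pooled over separate clusters cannot be read, so every correlation was computed over the 25 tumors of the larger branch. A pair of libraries in that branch stood apart. TC538 had the smallest size factor (0.279), the lowest total count and the fewest genes with at least 10 counts (13515). In it 37.9% of counts were on genes without a symbol and 37.0% on the 10 most counted genes. The medians of the branch were 21.2% and 21.3%. TC1088 had 12 counts of the follicular-cell marker *TG* and 1 count of *TSHR*, and the parathyroid gene *PTH* reached 25445 counts in a further tumor, TC2288. The samples were bulk tissue, in which fewer cells of a type and less RNA per cell cannot be told apart.

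*GRB2*, the adaptor, varied least of the 8 genes by its interquartile range. Its level was lowest in TC538 at 9.33, had a median of 11.27 and was highest in TC812 at 12.39, which is an 8.37-fold range of normalized counts. The interquartile range, 0.63 on the log2 scale, was larger than that of only 12.4% of the genes tested, for which the median interquartile range was 1.10. Among genes of a like level (median within 0.5 of that of *GRB2*) it was larger than that of 25.9%. The tumors other than TC538 lay between 10.29 (TC1088) and 12.39, so 1 library set much of the span of *GRB2*.

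The exchange factors *SOS1* and *SOS2* are paralogs with the same catalytic role. The *SOS1* level was 9.90 in its lowest tumor (TC1601), 11.20 at the median and 13.25 in its highest (TC538). *SOS2* ranged from 9.05 in TC1979 through a median of 10.11 to 12.69 in TC538. TC538 stood above the others for both genes, since the next highest levels were 12.43 for *SOS1* (TC1994) and 11.21 for *SOS2* (TC2288). The interquartile range of *SOS2* was 1.24 (58.7% of the genes tested had a smaller one), against 1.02 for *SOS1* (44.1%). Among genes of a like level these shares were 80.0% for *SOS2* and 67.9% for *SOS1*. The paralogs kept close to each other within tumors. The difference of the *SOS1* level minus the *SOS2* level stayed between 0.33 (TC1241) and 2.15 (TC1994), a span of 1.82, whereas the *SOS1* level minus the *GRB2* level ran from -2.08 (TC812) to 3.92 (TC538), a span of 6.00. Without TC538 its top was 1.81 (TC1994) and its span 3.88, and the span of *SOS1* minus *SOS2* stayed at 1.82.

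*HRAS*, one of the GTPases, had the lowest counts of the 8 genes, from 14 in TC538 to 664. Its level was 5.68 in TC538, 7.89 at the median and 9.14 in TC2011. The level of *NRAS*, the other GTPase examined, was 7.81 in TC1601, 9.89 at the median and 11.17 in TC2089. The interquartile ranges, 1.20 for *HRAS* and 1.13 for *NRAS*, were near the median of all genes. Among genes of a like level, 61.4% had a smaller one than *HRAS* and 74.2% a smaller one than *NRAS*. Unlike the SOS paralogs, the GTPase transcripts moved apart. The *NRAS* level minus the *HRAS* level ran from -0.79 in TC2011 to 5.35 in TC538, and its median was 1.92. Without TC538 its top was 4.61 (TC2089).

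The RAF kinases showed the same kind of divergence. *ARAF*, whose product is the RAF kinase with the weakest activity toward MEK, had a level of 8.32 in TC538, 10.38 at the median and 11.49 in TC1744. *BRAF*, whose product is the strongest, had 9.12 in TC1601, 10.23 at the median and 11.60 in TC538. The *BRAF* level minus the *ARAF* level lay between -1.85 (TC1744) and 3.28 (TC538), or 2.11 (TC1473) without TC538. The highest normalized count of *BRAF* was 5.60-fold its lowest, and that of *ARAF* 8.98-fold. Without TC538 the ranges were 4.57-fold and 7.96-fold.

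*NF1*, the inhibitor of the module, had a level of 11.04 in TC1744, 12.63 at the median and 14.24 in TC538. Its interquartile range was 0.84, and 29.6% of the genes tested had a smaller one, or 47.1% among genes of a like level. Of its lowest tumors, TC1744 had the highest *ARAF* level and TC2011 (11.05) the highest *HRAS* level. TC538 was the highest or the lowest of the 30 tumors for 7 of the 8 genes and had the next to highest level of the eighth, *NRAS* (11.03). It was highest for *BRAF*, *SOS1*, *SOS2* and *NF1* and lowest for *HRAS*, *ARAF* and *GRB2*. Its raw counts of *NF1* (5383) and *BRAF* (864) were below the medians of 6295 and 1142.5. Those of *SOS1* (2712) and *SOS2* (1846) were above the medians of 2475 and 1172. The high levels of TC538 thus depend on its small size factor.

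**Figure D1:**
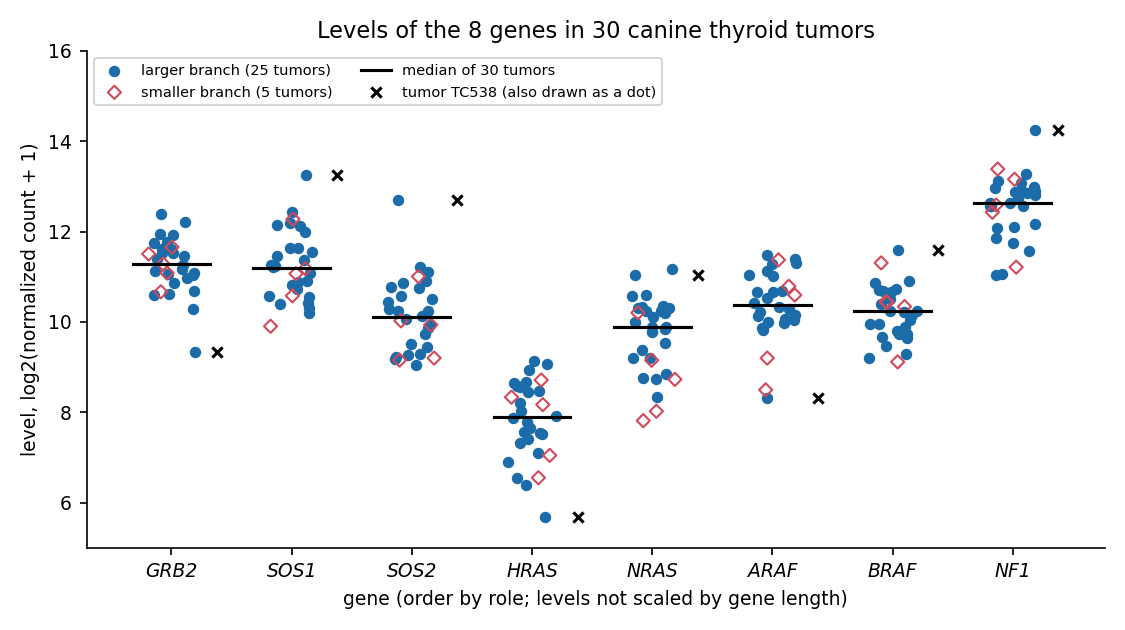
Level of each of the 8 genes, as log2(normalized count + 1), in the 25 tumors of the larger branch (dots) and the 5 of the smaller branch (diamonds), with the median of 30 tumors as a bar and TC538 repeated as a cross. TC538 sits at the top for *SOS1*, *SOS2*, *BRAF* and *NF1* (13.25, 12.69, 11.60 and 14.24) and at the bottom for *GRB2*, *HRAS* and *ARAF* (9.33, 5.68 and 8.32).

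The 8 transcripts fell into 2 opposed sets. *NRAS*, *BRAF*, *SOS1*, *SOS2* and *NF1* rose and fell together across tumors, *HRAS*, *ARAF* and *GRB2* did likewise, and the sets ran against each other. Each set therefore held a GTPase and a RAF kinase, and the exchange factors were in the set opposite to the adaptor that recruits them. Of the 28 pairs, 13 had a positive and 15 a negative Spearman's rho, and all 15 pairs between the sets were negative. The sets were drawn from these same coefficients, so the signs between them are a description and not a test. The study had reported *SOS1*, *SOS2*, *BRAF* and *NRAS* as falling and *GRB2* and *ARAF* as rising with the receptor gene *ERBB2* in these tumors. The 8 genes were chosen with that known, so the calls below are not independent evidence of the opposition. After Benjamini-Hochberg adjustment over all genes tested, 27 pairs passed an adjusted p of 0.05 (permutation test, two-sided), 12 of them positive and 15 negative. The exception was *HRAS* with *GRB2* (rho 0.40, permutation p = 0.0478, adjusted p = 0.127).

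Many genes outside the module did the same, so the share of pairs called is read beside the background. With each of the 8 levels as the measure, the share of all genes called in either direction was 37.6% for *NRAS*, 24% for *HRAS*, 27.1% for *BRAF*, 35% for *ARAF*, 35% for *SOS1*, 34.9% for *SOS2*, 25.4% for *GRB2* and 31.7% for *NF1*. The 2 sets also lay along the main axis of variation of the transcriptome. The first principal component of the other 18703 genes held 20.2% of their variance over the 25 tumors. As a description, its rho was -0.83 with *NRAS*, -0.74 with *BRAF*, -0.83 with *SOS1*, -0.85 with *SOS2* and -0.78 with *NF1*. With *HRAS* it was 0.65, with *ARAF* 0.78 and with *GRB2* 0.75, the sign of a component being arbitrary. The opposition of the sets is thus a property they shared with a large part of the genes measured, and nothing here marks it as particular to RAS signaling.

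The closest pair was *SOS1* and *SOS2*, with rho 0.83 (permutation p = 1e-05, the smallest these permutations can give, adjusted p = 0.000154) and Pearson's r 0.85 (permutation p = 1e-05). Without the 2 tumors farthest from the median *SOS1* level, TC538 and TC1994, r was 0.83. *BRAF* and *SOS2* followed with rho 0.78 and r 0.79, and r was 0.72 without TC538 and TC1213. The most opposed pair was *NRAS* and *ARAF*, with rho -0.83 (permutation p = 1e-05, adjusted p = 0.000194) and r -0.79, which stayed at -0.77 without TC2011 and TC1869. The adaptor and *ARAF* rose together (rho 0.75, adjusted p = 0.000661, r 0.82), and r was 0.74 without TC538 and TC1744. The GTPases were opposed, *NRAS* against *HRAS* having rho -0.72 (adjusted p = 0.00289) and r -0.76, or -0.71 without TC2011 and TC1869. The kinases *BRAF* and *ARAF* were opposed to a like degree, with rho -0.69 (adjusted p = 0.00264) and r -0.73, or -0.67 without TC538 and TC1213. *SOS2* against *GRB2* had rho -0.70 (adjusted p = 0.00278) and r -0.80, or -0.69 without TC538 and TC1979.

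All 28 coefficients kept their sign when the 2 tumors farthest from the median of the measure were left out. For r the permutation p was then below 0.05 in 27 pairs when the first gene of each pair was the measure and in 26 when the second was. By the adjusted Spearman test 18 pairs were called without those 2 tumors. The share of all genes called with a member then lay between 7.88% (*GRB2*) and 28.2% (*SOS1*). Without TC538 alone, 23 pairs were called, where the share of all genes ran from 15.1% (*HRAS*) to 32.5% (*NRAS*). *NRAS* with *GRB2* (rho -0.46, adjusted p = 0.100), *HRAS* with *BRAF* (-0.49, 0.0792), *BRAF* with *NF1* (0.52, 0.0542) and *GRB2* with *NF1* (-0.50, 0.0664) then missed the threshold. Without TC1088, *NRAS* with *GRB2* missed it (rho -0.48, adjusted p = 0.0686), and 26 pairs were called. The share of all genes was then 24.8% (*GRB2*) to 37.3% (*NRAS*).

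The total count had rho 0.54 with *HRAS*, 0.38 with *ARAF* and 0.28 with *GRB2*, and between -0.33 (*BRAF*) and -0.58 (*NF1*) with the other set, and the lowest adjusted p of the 8 genes was 0.0673 (*NF1*). Of all genes, 1.5% were called with the total count. The mean level of 57 ribosomal protein genes had rho 0.53 with *HRAS* and 0.47 with *ARAF*, and -0.50 with *SOS1* and -0.43 with *NRAS*, at adjusted p of 0.129 or more (0.965% of all genes were called). With the total count held fixed by partial correlation, all 28 signs stayed and 16 pairs were called, and with the ribosomal protein level held fixed 24 were called. The share of all genes called with a member was 2.24% (*HRAS*) to 25.4% (*SOS1*) with the total count held fixed. With the ribosomal protein level held fixed it was 15.5% (*HRAS*) to 34.2% (*NRAS*). For *HRAS*, 420 genes were called with the total count held fixed, against 4488 without it. Gene length was not analysed here.

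**Figure D2:**
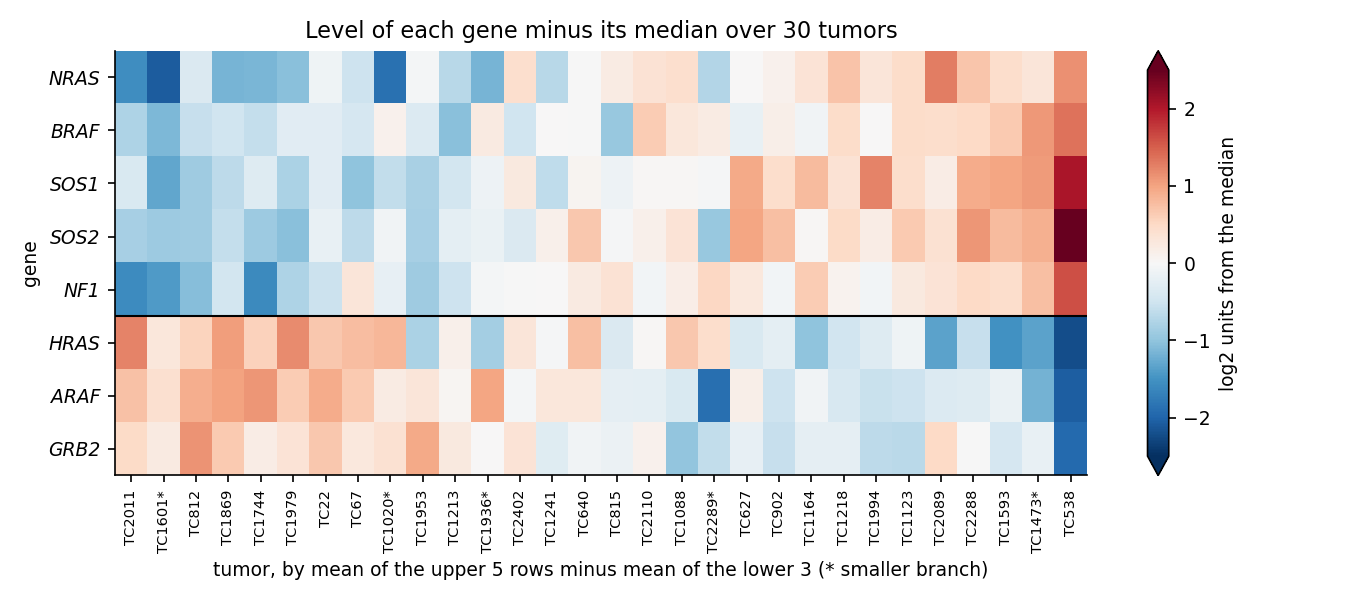
Level of each gene minus its median over the 30 tumors, in log2 units (color), with tumors in the order of the mean of the upper 5 genes minus the mean of the lower 3, an order set after the values were seen. At the left end TC2011 (difference -1.84) has all 5 upper genes below and all 3 lower genes above their medians, and at the right end TC538 (3.82) has the reverse.

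**Figure D3:**
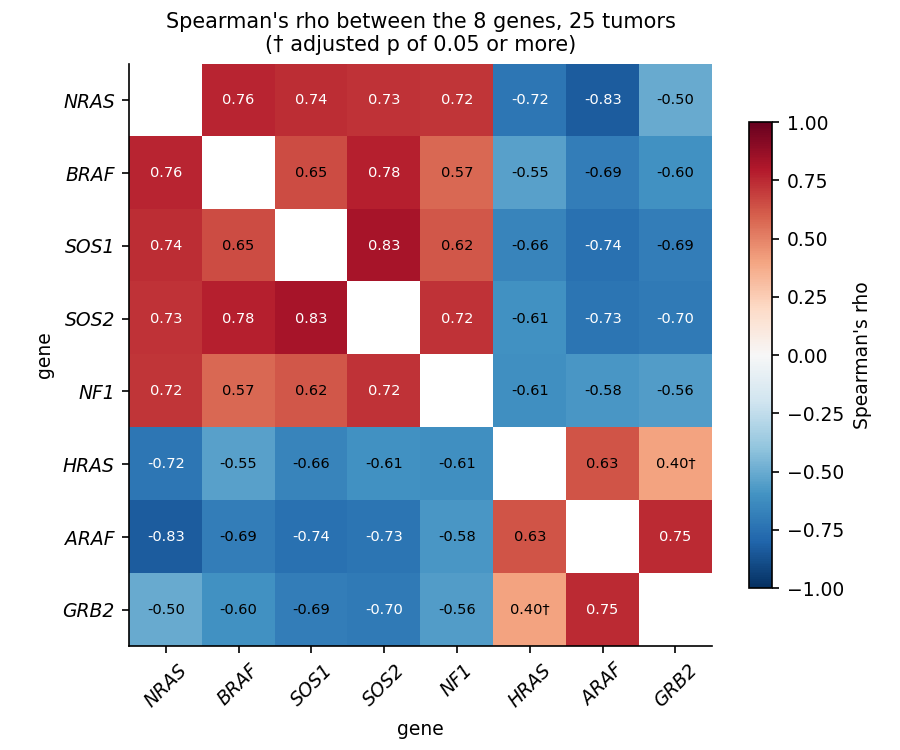
Spearman's rho for each pair of the 8 genes over the 25 tumors of the larger branch, on a color scale from -1 to 1. The upper left block of 5 genes and the lower right block of 3 genes are positive, all 15 cells between the blocks are negative, and the dagger marks the pair that was not called (*HRAS* with *GRB2*, 0.40).

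The tumors at the ends of this order show the sets in single samples. TC2011 had the highest *HRAS* level (9.14), an *ARAF* level of 11.12 and a *GRB2* level of 11.75. The same tumor had *NRAS* at 8.34, *BRAF* at 9.46, *SOS2* at 9.28 and *NF1* at 11.05, each below its median. TC1593, whose size factor was 1.19, showed the opposite arrangement, its *HRAS* level being 6.38 and its *SOS1*, *SOS2* and *NF1* levels 12.19, 10.89 and 13.07. TC2089 was mixed. It had the highest *NRAS* level (11.17) and the fourth lowest *HRAS* level (6.56), yet its *GRB2* level of 11.77 was above the median.

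The genes whose levels followed each member most closely often lay on the member's own chromosome. Of the 9943 genes considered (matched by symbol to the gene order of the UU_Cfam_GSD_1.0 assembly, with a median normalized count of at least 100), 3.46% were on the chromosome of *HRAS*, but 29 of the 50 genes with the highest rho with *HRAS* were on it (58%). For *SOS2* it was 28 of 50 (56%, against 3.28% of all), for *GRB2* 20 (40%, against 6.31%), for *NF1* 20 (40%, against 6.31%) and for *BRAF* 16 (32%, against 1.85%). The shares were lower for *SOS1* (14%, against 3.24%), *ARAF* (12%, against 3.01%) and *NRAS* (8%, against 3.24%). None of the 50 genes with the lowest rho was on the member's chromosome, for any of the 8 genes. These are shares over genes that share the same 25 libraries, chosen for description after values were seen, and no test was made of them. Without TC538 they were 56% for *HRAS* and for *SOS2*, 34% for *GRB2*, 40% for *NF1* and 32% for *BRAF*, and without TC1088 they were 58%, 54%, 34%, 36% and 36%.

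**Figure D4:**
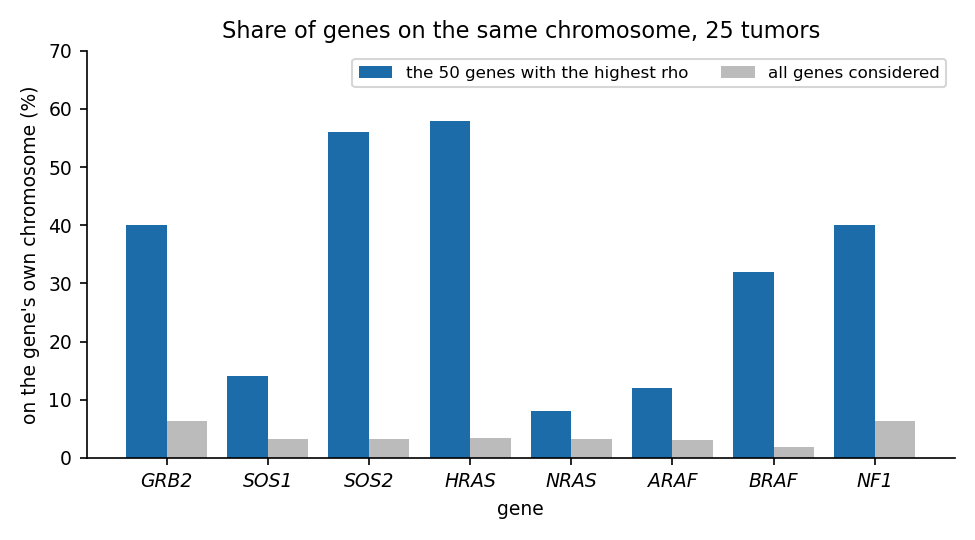
Percentage of genes on the same chromosome as each member, among the 50 genes with the highest rho with it (blue) and among all genes considered (grey), over the 25 tumors of the larger branch. The blue bar is above the grey bar for each of the 8 genes and reaches 58% for *HRAS* and 56% for *SOS2*.

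For *HRAS* the likeness spanned the chromosome. The 20 matched genes nearest to it had a median rho of 0.46, the other 432 on the chromosome 0.40, and the 12830 genes on other chromosomes 0.0492. *RCE1*, which encodes the protease that trims the prenylated tail of RAS proteins, was the gene most like *HRAS* (rho 0.89, adjusted p = 0.000803). It lay 192 matched genes away on the same chromosome. *UNC93B1* (0.88), the gene of a trafficking protein of Toll-like receptors, was on that chromosome too, 169 matched genes from *HRAS*. For *BRAF* the pattern was similar but weaker, with a median rho of 0.13 for the nearest 20 genes, 0.20 for the rest of its chromosome and -0.0869 elsewhere. The 3 genes most like *BRAF* were on its chromosome. They were the histone acetyltransferase gene *KAT6A* (rho 0.96), the histone methyltransferase gene *NSD3* (0.94) and *LUC7L2* (0.92), a splicing factor gene 11 matched genes away.

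For *SOS2* the likeness was near the gene. The median rho was 0.49 among the nearest 20 genes (18 of them positive), 0.0142 on the rest of the chromosome and -0.11 elsewhere. *KLHL28* (rho 0.96), the kinase gene *MAP4K5* (0.95) and *PNN* (0.95), all within 18 matched genes of *SOS2*, followed it most closely. *SOS1* behaved likewise, with medians of 0.31 near the gene, 0.0138 on the rest of its chromosome and -0.0947 elsewhere. Its closest gene was *MAP4K3* (0.93), a kinase gene 2 matched genes away, and the next was *MAP4K5* (0.92), which is near *SOS2* and not on the chromosome of *SOS1*. *GRB2* had medians of 0.61 for the nearest 20 genes, 19 of them positive, 0.29 for the rest and 0.0446 elsewhere, although the 3 genes with the highest rho, *NUDT16L1* (0.88), *DPF2* (0.88) and *TSPAN11* (0.86), were on other chromosomes.

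*NF1* and *GRB2* lie on the same chromosome of that assembly, as does *ERBB2*. The median rho with *NF1* was 0.35 for its nearest 20 genes, -0.22 for the rest of the chromosome and -0.0669 elsewhere. *NUFIP2* (0.91) and *MED13* (0.91), which encodes a Mediator subunit, were on that chromosome, 38 and 63 matched genes from *NF1*. For *ARAF* the gene with the highest rho was the deubiquitinase gene *USP11* (0.92), 3 matched genes away, ahead of *DECR2* and *NUBP2* (both 0.92) on other chromosomes, but the nearest 20 genes were mixed, with 12 positive and a median of 0.19. For *NRAS* the closest genes were on other chromosomes. They were *TET2* (0.91), an enzyme gene of DNA demethylation, *NBEAL1* (0.91) and the tyrosine kinase gene *FER* (0.90). The most opposed genes were *CCDC85B* (-0.90) and *TMEM147* (-0.89) for *NRAS*, *SRPK1* (-0.89) and again *FER* (-0.88) for *ARAF*, and *CDC37* (-0.89) and the kinase gene *MAP2K3* (-0.89) for *NF1*. For *HRAS* they were *VPS45* (-0.87) and *PRKAB2* (-0.86), and for *BRAF* *PYCR3* (-0.89) and *EXOSC4* (-0.86). For *SOS1* they were *ZNF428* (-0.89) and *POLE3* (-0.89), for *SOS2* *SF3B5* (-0.92) and *NMT1* (-0.90), and for *GRB2* *EIF5A2* (-0.85) and *CEP170* (-0.85).

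The direct neighbours in that gene order differed from member to member. *NRAS* followed *AMPD1* (rho 0.82, adjusted p = 0.000131). *GRB2* followed *TMEM94* (0.84, adjusted p = 0.000661). *SOS2* had rho 0.47 with *VCPKMT* (adjusted p = 0.0546). *ARAF* was opposed to *ZNF41* (-0.64, adjusted p = 0.00454), and the neighbours tested for *HRAS*, *BRAF*, *SOS1* and *NF1* were not called. The strand setting of the counting is not given in the sources used here, so reads from overlapping genes on opposite strands could not be told apart.

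*ERBB2*, the receptor tyrosine kinase gene that encodes HER2, is one of the receptors the study followed in these tumors. Its level in the larger branch ran from 10.58 (TC1088) to 14.97 (TC1869) with a median of 13.20. *GRB2* and *ARAF* rose with it, and *SOS2*, *BRAF*, *NRAS* and *SOS1* fell. Thus 6 of the 8 genes were called, 2 positive and 4 negative, where 22.2% of 18710 genes were called, 10.6% positive and 11.6% negative. The study had itself related these genes to *ERBB2* in the same tumors, so their count is not independent evidence and nothing is read from it against the background. *GRB2* had rho 0.84 (permutation p = 1e-05, adjusted p = 0.000806) and r 0.79 (permutation p = 1e-05), and r was 0.82 without TC1088 and TC1869. It ranked above 99.9% of all genes by rho, a description and not new support, since the study had already reported this positive correlation. *ARAF* had rho 0.77 (permutation p = 1e-05, adjusted p = 0.000806) and r 0.70, or 0.76 without those tumors. In the figure of levels against *ERBB2*, the tumors with the lowest *GRB2* levels, TC538 (9.33) and TC1088 (10.29), were also those with the lowest *ERBB2* levels of the branch.

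The negative side was led by *SOS2*, with rho -0.65 (permutation p = 0.000600, adjusted p = 0.0101) and r -0.60, or -0.71 without TC1088 and TC1869. *BRAF* had rho -0.58 (adjusted p = 0.0230) and r -0.53, *NRAS* -0.56 (adjusted p = 0.0271) and r -0.53, and *SOS1* -0.55 (adjusted p = 0.0290) and r -0.49. Without those 2 tumors r was -0.58, -0.50 and -0.60. *HRAS* (rho 0.42, adjusted p = 0.107) and *NF1* (rho -0.44, adjusted p = 0.0915) did not pass, although their r without the 2 tumors was 0.50 and -0.63. *GRB2* and *NF1*, on the same chromosome as *ERBB2*, thus had coefficients of opposite sign with it.

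*GRB2*, *ARAF* and *SOS2* were called in every alternative run. Without TC538, *BRAF* (adjusted p = 0.0516), *NRAS* (0.0592) and *SOS1* (0.0693) missed the threshold with rho between -0.53 and -0.51, and without TC1088 *HRAS* passed it (rho 0.53, adjusted p = 0.0450). With the total count held fixed, these 3 genes, *BRAF*, *NRAS* and *SOS1*, missed the threshold too. With the ribosomal protein level held fixed 2 of them missed it, and without TC1088 and TC1869 also 2. Fitted on the counts with edgeR's quasi-likelihood test, which called 29% of genes, the log2 level changed per log2 unit of *ERBB2* by 0.55 for *GRB2* (adjusted p = 0.000914), 0.46 for *ARAF* (0.00533) and -0.65 for *SOS2* (0.00484). By that test *NF1* was called (slope -0.42, adjusted p = 0.0277) and *NRAS* was not (-0.40, 0.0584).

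**Figure D5:**
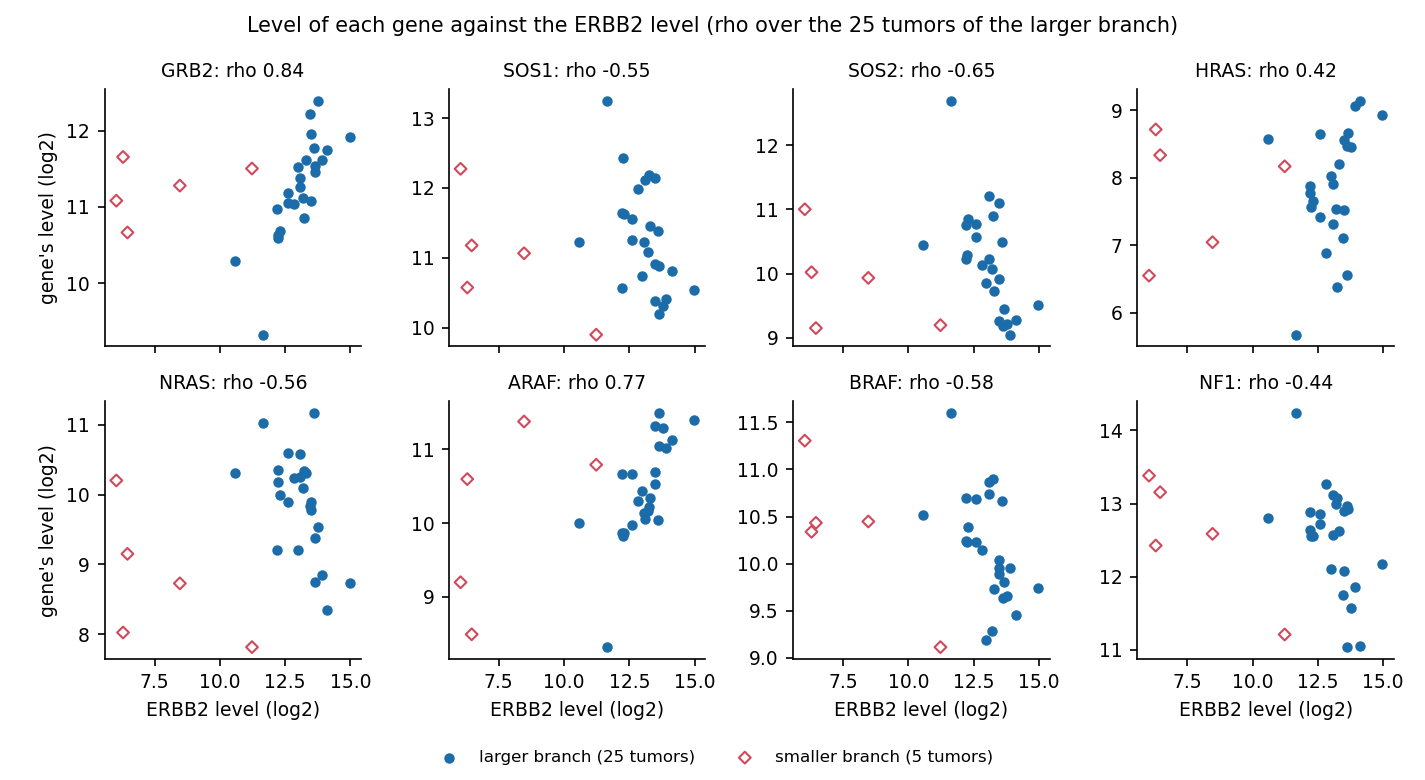
Level of each of the 8 genes against the *ERBB2* level, both log2(normalized count + 1), with the 25 tumors of the larger branch as dots and the 5 of the smaller branch as diamonds, and rho over the 25 tumors in each panel title. *GRB2* and *ARAF* rise with *ERBB2* (rho 0.84 and 0.77), and *SOS2* falls (rho -0.65).

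The rest of the pathway showed no more correlation with *ERBB2* than genes at large. Of 56 further genes of receptors, adaptors, exchange factors, GTPases, kinases, inhibitors and lipid processing that were tested, 7 were called positive and 6 negative (23.2%, against 22.2% of all genes). Among 10 GTPase-activating proteins and their partners, 2 were positive and 3 negative. *RASA1*, which encodes a second RAS inhibitor, had rho -0.75 and *SPRED1*, whose product recruits neurofibromin to the membrane, had -0.75 (adjusted p = 0.000806 for both), the lowest coefficients of the 56. *RASAL3* had 0.59. Among 7 other small GTPases, 1 was positive and 2 negative, *RRAS* having the highest rho of the 56 genes (0.65, adjusted p = 0.0103) and *RAP1A* -0.65 (0.0101). Of 12 adaptors, *SHC1* (0.58) and *FRS3* (0.57) were positive. The 5 other exchange factors lay between rho -0.32 (*RASGRP3*, adjusted p = 0.240) and 0.21 (*RASGRP4*, 0.488). Of the MEK and ERK genes, *MAPK3* had rho 0.45 (adjusted p = 0.0831) and *MAP2K2* 0.40 (adjusted p = 0.134).

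The same lists were set beside each member. With *NRAS* as the measure 24 of 57 pathway genes were called (42.1%, against 37.6% of all genes), with *BRAF* 19 (33.3%, against 27.1%), with *SOS1* 20 (35.1%, against 35%), with *SOS2* 19 (33.3%, against 34.9%), with *NF1* 21 (36.8%, against 31.7%), with *ARAF* 22 (38.6%, against 35%), with *GRB2* 14 (24.6%, against 25.4%) and with *HRAS* 9 (15.8%, against 24%). These shares were near the background. *RAP1A*, the gene of a GTPase close to RAS, had the highest rho with *NRAS* (0.79), *SOS1* (0.89) and *SOS2* (0.81) and the lowest with *ARAF* (-0.81). *FNTA*, a subunit gene of the farnesyltransferase that anchors RAS proteins, had the highest rho with *BRAF* (0.84), and *RASA2*, another GTPase-activating protein gene, had the highest with *NF1* (0.84) and the lowest with *GRB2* (-0.70). *MAP2K2*, which encodes MEK2, had the lowest rho with *NRAS* (-0.76), *SOS1* (-0.76) and *NF1* (-0.80). *LZTR1*, whose product directs RAS proteins to degradation, had the lowest with *BRAF* (-0.72), the adaptor gene *SHC1* the lowest with *SOS2* (-0.73), and the phosphatase gene *PTPN11* the lowest with *HRAS* (-0.71). *ERBB2* itself was the pathway gene with the highest rho with *GRB2* and with *ARAF*.

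The thyroid differentiation score, here the mean of the median-centered levels of 14 genes of thyroid function, did not follow the module. The study's own score was a sum over a larger set of genes. None of the 8 genes was called, where 0.733% of all genes were called, and none had an unadjusted permutation p below 0.05. Their rho lay between -0.18 (*NRAS*, adjusted p = 0.850) and 0.29 (*SOS1*, adjusted p = 0.655). *BRAF* had rho 0.00615 and *GRB2* -0.0115. By edgeR's test, which called 5.48% of genes, none of the 8 was called either, the lowest adjusted p being 0.759 (*ARAF*). Of the 57 pathway genes, the receptor gene *KIT* was called (rho -0.77, adjusted p = 0.00492).

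The MAPK pathway activation score (MPAS) sums z-scores of 10 genes that ERK signaling induces, and served as a transcript readout downstream of RAS and RAF. None of the 8 genes passed the adjusted threshold, where 0.952% of all genes were called. The share of all genes at an unadjusted permutation p below 0.05 is not given here for the 25 tumors. Without TC538 and TC627, 2461 of 18701 genes were below it. By rho with the score, 98.4% of all genes lay below *HRAS*, and 4.24%, 5.41% and 5.95% below *SOS2*, *NRAS* and *SOS1*. Over the 25 tumors 4 of the 8 genes had an unadjusted permutation p below 0.05. These were *HRAS*, with rho 0.59 (permutation p = 0.00223, adjusted p = 0.0793) and r 0.61, *SOS2* with -0.50 (p = 0.0108 by permutation, adjusted p = 0.118), *NRAS* with -0.48 (p = 0.0152 by permutation, adjusted p = 0.132) and *SOS1* with -0.47 (p = 0.0175 by permutation, adjusted p = 0.138). Without the 2 tumors farthest from the median score, TC538 and TC627, r was 0.51 for *HRAS* (permutation p = 0.0120), -0.50 for *NRAS*, -0.32 for *SOS2* and -0.33 for *SOS1*. By edgeR's test, which called 11.2% of genes, *HRAS* (adjusted p = 0.0347), *SOS1* (0.0333) and *SOS2* (0.0194) were called.

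*GRB2* was unrelated in rank to the score (rho -0.0523, adjusted p = 0.894), *ARAF* had 0.29 (0.357), *NF1* -0.29 (0.367) and *BRAF* -0.39 (0.217). The score and the ribosomal protein level moved together over these tumors (rho 0.45, permutation p = 0.0245, and r 0.47, permutation p = 0.0159, or 0.51 without TC538 and TC627). With that level held fixed the rho of *HRAS* with the score was 0.47 (adjusted p = 0.252), and with the total count held fixed it was 0.51 (0.224). Of the 57 pathway genes, *SPRED2* (rho 0.71, adjusted p = 0.0223) and *RCE1* (0.67, 0.0444) were called, both positive, and *RAP1A* had the lowest rho (-0.53, adjusted p = 0.100).

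Markers of other cells were set beside the 8 genes. Summed over each list as its mean level in the larger branch, fibroblast markers (5 genes) ranged from 7.62 to 13.45, endothelial markers (4 genes) from 9.69 to 12.59, leukocyte markers (5 genes) from 6.56 to 8.36 and follicular-cell markers (8 genes) from 3.75 to 15.57. Endothelial markers had rho -0.50 with *NF1* (permutation p = 0.0116, adjusted p = 0.114, with 3.73% of all genes called), and fibroblast markers had 0.42 with *GRB2* (adjusted p = 0.315) and -0.42 with *NF1* (adjusted p = 0.319, 0.786% called). With the follicular-cell, C-cell, leukocyte, skeletal muscle and parathyroid lists, the 8 coefficients lay between -0.41 (*GRB2* with the parathyroid list, adjusted p = 0.445) and 0.45 (*SOS1* with the same list, adjusted p = 0.427). The share of each cell type in these relations was not tested.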

How the data were processed

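Per the labels, total RNA of 30 primary tumors was made into ribosome-depleted libraries. The authors aligned the reads with STAR (genome build CanFam3.1) and deposited its gene counts, raw and not normalized. The strand setting is not given in the sources used here. The table had 0 columns of no tumor and 14644 genes without a symbol. Between 12288945 and 45148677 counts per tumor set the precision. No molecular identifiers were counted, so counting error is a lower limit.

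Counts were divided by median-of-ratios size factors over 15611 genes with a count in every tumor, and levels are log2 of the result plus a pseudocount of 1. A gene was kept where 5 or more tumors had 10 or more counts. Branches came from Ward clustering on 764 genes with mean level above 2 and variance above 6. Spearman's rho of every gene with each measure was tested with 100000 permutations (two-sided) and adjusted by Benjamini-Hochberg over all genes tested, and a pair of members took the larger of its 2 adjusted p. A gene in a score or marker list was left out of that scan. Pearson's r was given with and without the 2 tumors farthest from the median of the measure. There were 28 pairs and 24 relations with *ERBB2* and the 2 scores. Rank correlation is a method of the study. As an alternative test, edgeR 4.0.16 in R 4.3.3 on the deposited counts, with the measure as a continuous covariate, was run. Both were tested on simulated data. Python 3.11.15, numpy 2.4.6, scipy 1.17.1, pandas 2.3.3 and matplotlib 3.10.9 were used.

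The 8 genes and the pathway and marker lists were chosen with earlier results of these data known. The genes named are the 8 members, *ERBB2*, score and marker genes where a result turns on them, the 3 genes with the highest and the 2 with the lowest rho with each member (median normalized count of at least 100), the pathway genes with the highest and lowest rho in each scan, and direct neighbours. Other named pathway genes, the shares by chromosome and the principal component were chosen after values were seen. Gene order came from a RefSeq table of UU_Cfam_GSD_1.0, in which all 8 members and 13283 tested genes were matched by symbol, and no coordinates were used because the build differs. The 6 pathway genes *RASGRF1*, *SPRED3*, *SHC2*, *GRAP*, *FNTB* and *ICMT* were not tested. No genome of the files' build was used, so no sequence is shown, levels were not scaled by length, and a planned contrast of long and short genes was not run. Whether a tumor carries a mutation was not analysed here. No 2 tumors had identical counts. Results of some other genes are not reported here.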

Additional observations from a re-analysis of the deposited data

How the results depend on the processing

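All 28 pair coefficients kept their sign in each of the 11 alternatives run for them. Of the 28 pairs, 27 were called, and between 23 and 27 were in the alternatives other than leaving out the 2 farthest tumors (18) and holding the total count fixed (16). The share of all genes called with a member moved as well, for *HRAS* from 24% to 2.24% with the total count held fixed. Members' median levels and spreads moved by less than 1 SD over tumors under other scaling or a pseudocount of 8. No paired analysis was possible, because each of the 30 tumors gave 1 library and the labels give no groups or pairs. Depth limits *HRAS* most, since its lowest count was 14. Holding fixed the number of genes with at least 10 counts, and giving ranges and differences of levels without TC538, were alternatives added after seeing the data.

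For *ERBB2*, 1978 genes were positive and 2172 negative. There were 1090 and 1121 without the 2 farthest tumors, 985 and 830 with the total count held fixed, 1338 negative without TC538 and 3357 negative by edgeR. For the differentiation score, 83 were positive and 54 negative. There were 30 and 19 with at least 10 counts in every tumor, 35 and 23 without TC1088, 22 and 14 without the 2 farthest tumors, 46 and 25 with the total count held fixed, 20 negative with the ribosomal protein level held fixed, and 331 and 693 by edgeR. For MPAS, 97 were positive and 81 negative. There were 170 positive with TMM scaling, 56 positive with at least 10 counts in every tumor, 606 and 587 over all 30 tumors with ranks centered within branches, 656 and 570 without TC1088, 15 and 13 without TC538, 15 and 9 with the ribosomal protein level held fixed, 16 and 14 with the total count held fixed, 29 and 20 with the gene number held fixed, and 935 and 1151 by edgeR. Without the 2 farthest tumors it was 0 and 0 by the Spearman scan, with 2461 genes at an unadjusted p below 0.05. Fewer tumors entered the tests that left some out, and otherwise the cause was not tested.

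No called member changed sign. Uncalled values near 0 did. With the differentiation score, *BRAF* was -0.0323 under TMM scaling, -0.0271 over all 30 tumors, -0.0148 without the 2 farthest tumors, -0.143 with the ribosomal protein level held fixed and -0.0267 (slope) by edgeR. *GRB2* was 0.0662 under TMM scaling, 0.0548 over all 30 tumors, 0.0622 with the ribosomal protein level held fixed and 0.0392 by edgeR. *HRAS* was -0.0650, *ARAF* -0.0517 and *NF1* 0.0508 with the total count held fixed, and *HRAS* was -0.00578 by edgeR. With MPAS, *GRB2* was 0.0169 under TMM scaling, 0.0690 over all 30 tumors and 0.0365 without TC1088.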

Other observations

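The 5 tumors of the smaller branch entered no correlation, and their values are given without a comparison. *NRAS* had a level of 8.02 in TC1020, 10.20 in TC1473, 7.81 in TC1601, 8.73 in TC1936 and 9.15 in TC2289. *HRAS* had 8.71, 6.55, 8.17, 7.05 and 8.33 in the same order of tumors, *ARAF* 10.59, 9.20, 10.79, 11.37 and 8.50, and *BRAF* 10.34, 11.31, 9.12, 10.45 and 10.43. *GRB2* stayed within 10.67 (TC2289) and 11.66 (TC1020). *SOS1* lay between 9.90 (TC1601) and 12.27 (TC1473), *SOS2* between 9.15 (TC2289) and 11.00 (TC1473), and *NF1* between 11.21 (TC1601) and 13.38 (TC1473). TC1473 and TC1601 stood at opposite ends. TC1473 had all of *NRAS*, *BRAF*, *SOS1*, *SOS2* and *NF1* above the median of the 30 tumors and *HRAS*, *ARAF* and *GRB2* below it, and TC1601 had the reverse. The *ERBB2* level of these tumors ran from 6.04 (TC1473) to 11.23 (TC1601).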
